A study of Mus musculus with 4 samples.

Results

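The 10 genes described here carry VEGF and angiopoietin signalling: the ligands Vegfa, Pgf, Angpt1 and Angpt2, the VEGF receptors Flt1 and Kdr, the neuropilins Nrp1 and Nrp2, the angiopoietin receptor Tek, and Eng, a co-receptor of the TGF-β and BMP families. They were taken by symbol, each symbol had 1 identifier, and all 10 were found among the 32285 genes listed. Their transcripts were counted in single cells of whole kidney from male C3H mice, harvested at 18 weeks of age. Wild-type (WT) mice and Sweet Pee (SP) mice, which carry a missense mutation of Slc5a2, the gene of the glucose transporter SGLT2, received a normal diet (ND) or a high-fat diet with 60% of calories from fat (HFD) for 8 weeks from 10 weeks of age. The mutation is carried in the germ line, so that all cells of SP mice hold it. Each of the 4 conditions was 1 library: WT-ND and WT-HFD for the wild type, SP-ND and SP-HFD for the mutant. Where 4 values follow each other below without names, they stand in that order. The number of animals behind a library is not given in the sources used here. There was no replicate within a condition, so that ratios between libraries compare those libraries, carry no p-value, and have 95% intervals that cover counting error only.

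VEGF-A is secreted by podocytes and tubule cells and acts on the endothelium next to them, where KDR carries most of the signal, FLT1 binds the ligand with high affinity and signals weakly, and the neuropilins hold ligand and receptor together. Glomerular endothelium keeps its fenestrations only under a steady supply of VEGF-A from podocytes. ANGPT1 activates TEK, also called TIE2, and steadies vessels, whereas ANGPT2 is mostly an antagonist of it, and PGF binds FLT1 and not KDR.

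After filters on genes, mitochondrial share and doublets, 32280 cells remained, between 6389 and 9924 per library. Of a library's barcodes, 32.7% to 49.8% had 50% or more mitochondrial UMIs and were left out. Shares of a library's cells or of its UMIs of a gene, given below, are of its kept cells. The libraries held 90728590 to 115117649 UMIs over all barcodes, and the kept cells a median of 3520 to 5393. Pairs of libraries shared 54 to 77 barcodes. Cells were put into 13 classes by their UMIs of marker genes, none of which was a member, and are called podocyte-like, glomerular endothelial-like and so on after the marker list that led. Each marker was highest in its own class, other than Npr3 (1 of 4 capillary endothelial markers) and Sema3g (1 of 6 arterial markers), which were higher in podocyte-like cells. The same markers set the classes, so that this is not a separate check of them. The podocyte-like class held 1435 cells, the glomerular endothelial-like class 946, the capillary endothelial-like class 1226, the arterial or descending vasa recta endothelial-like class (arterial-like below) 597 and the mesangial or mural-like class 999. WT-HFD stood apart: 457 of its kept cells carried markers of more than 1 lineage, against 78 to 125 in the other libraries, and 29.2% of its cells were in no class, against 16.2% to 19.9%. The members gave between 69 UMIs per library (the fewest for Pgf) and 8763 (the most for Vegfa). Levels are given as CPM, the UMIs of the gene per 1000000 UMIs of the class in a library. Since a 3' assay was used and levels depend on capture, no level is compared between genes.

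Vegfa led in podocyte-like cells. Its level there was 1407 CPM in WT-ND and 1132 in WT-HFD, and the SP libraries had 1597 (SP-ND) and 1404 (SP-HFD). The mean was 1385 ± 191 (SD over the 4 libraries). All 4 values lay above every value of any other class. The next class was principal cell-like, with 197, 128, 213 and 230 CPM in the same order of libraries. The tubule classes followed closely on each other: thick ascending limb-like cells had 120.3 to 162 CPM, intercalated-like cells 108 to 113, proximal tubule-like cells 98.9 to 113, and distal convoluted or connecting tubule-like cells 91.1 to 109.8. Principal cell-like and thick ascending limb-like cells overlapped in their ranges, thick ascending limb-like cells lay above intercalated-like cells in all 4 libraries without overlap, and the other neighbours among the tubule classes overlapped. Podocyte-like cells were 4.35% to 4.63% of the kept cells of a library and held 32.3% to 40.7% of the Vegfa UMIs of its kept cells. Proximal tubule-like cells held 10.3% to 26.8% of these UMIs and thick ascending limb-like cells 9.35% to 16.9%. How these shares depend on the barcodes left out for their mitochondrial share was not tested.

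**Figure D1:**
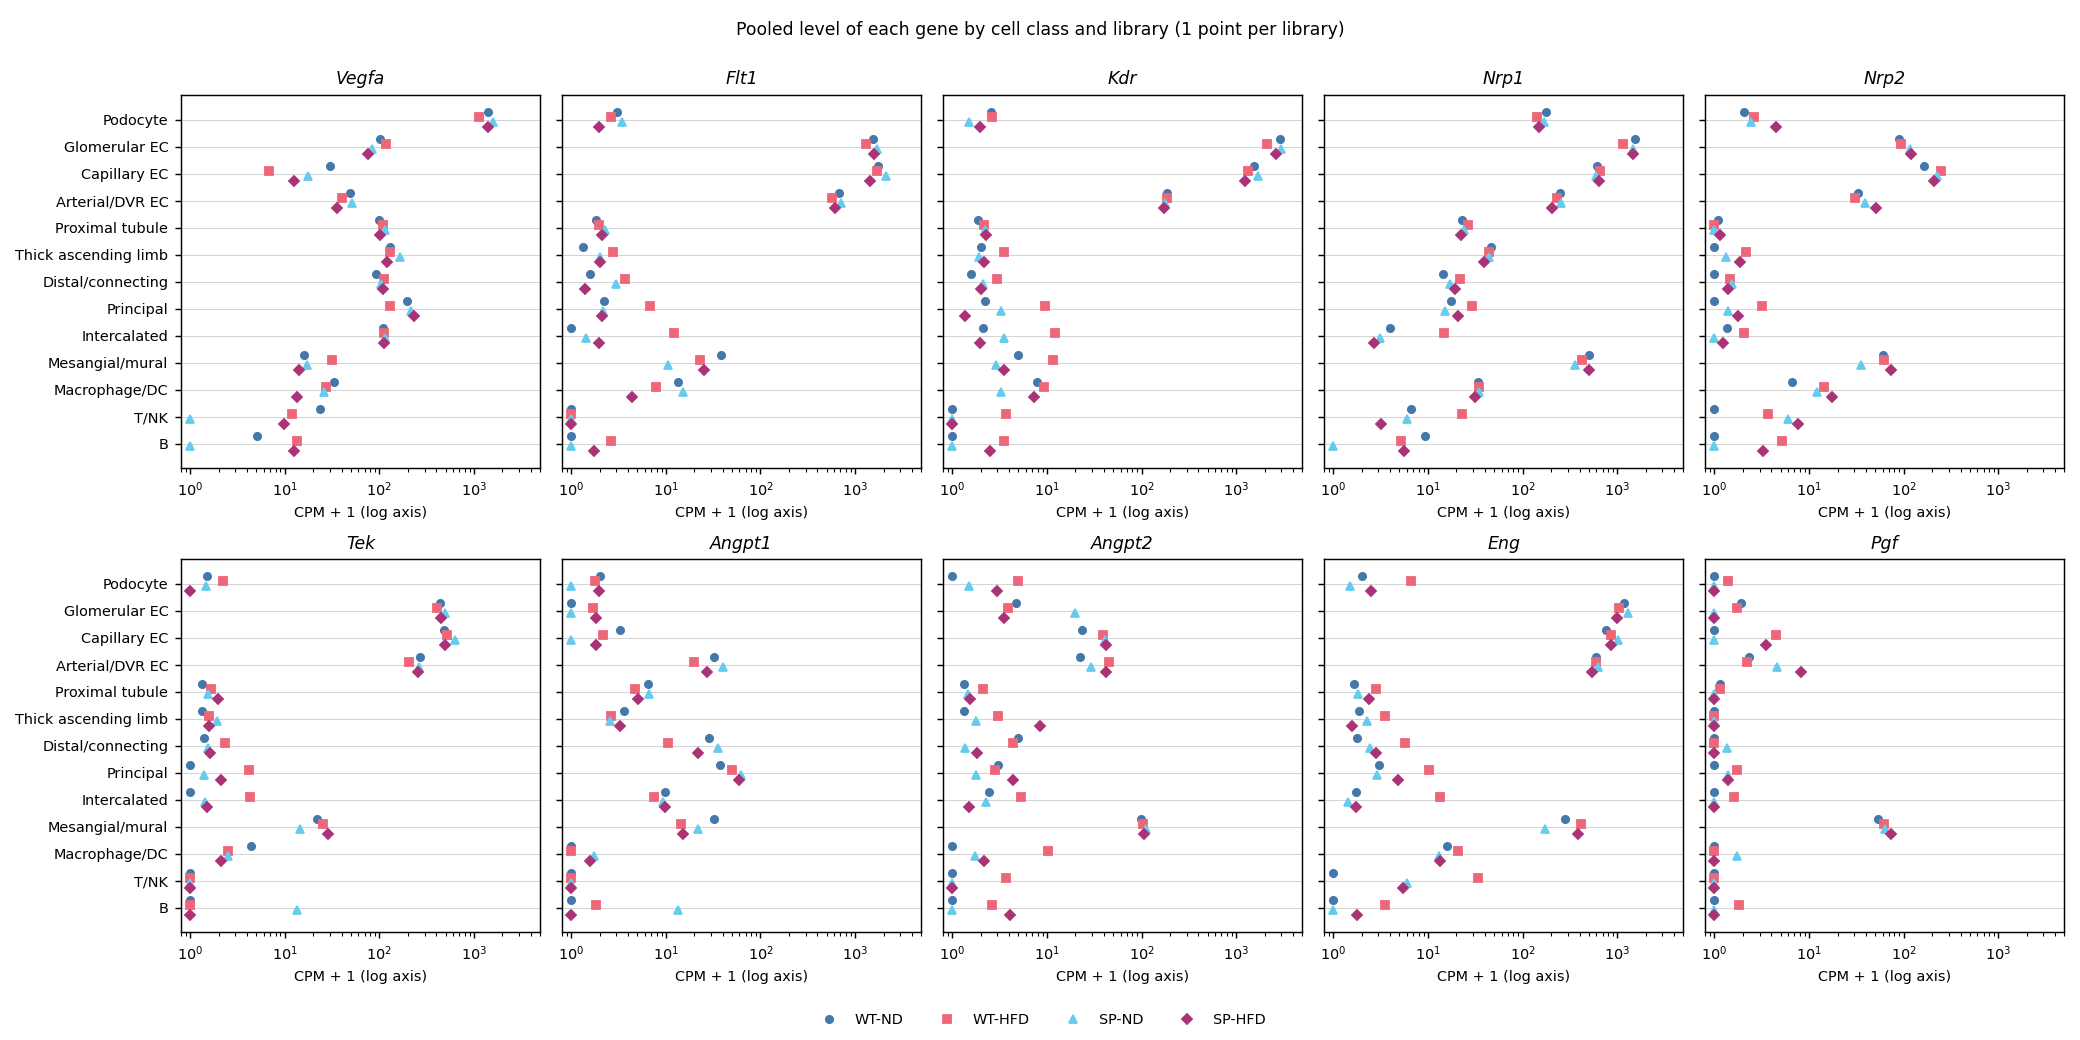
Level of each of the 10 genes (CPM + 1, log axis) in the 13 cell classes, with 1 point per library and a symbol and colour for each of the 4 libraries. Vegfa was highest in podocyte-like cells (mean 1385 CPM), Flt1, Kdr, Nrp1, Nrp2, Tek and Eng in an endothelial-like class, Angpt2 (mean 104 CPM) and Pgf (62.5 CPM) in mesangial or mural-like cells, and Angpt1 in principal cell-like cells (51.3 CPM).

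Compared within each library, Vegfa was 13.1-fold higher in podocyte-like than in proximal tubule-like cells (mean log2 ratio 3.71 ± 0.22, SD over the 4 libraries) and 10.3-fold higher than in thick ascending limb-like cells (log2 3.36). The CPM here count mitochondrial UMIs. Their median share was 5.98% to 9.94% in podocyte-like, 26.9% to 35.1% in proximal tubule-like and 32.3% to 35.8% in thick ascending limb-like cells. Their part in the size of these ratios was not tested. Of the 6 members measured against proximal tubule-like cells, Vegfa and Nrp1 (log2 2.79) were at least 2-fold higher in podocyte-like cells in every library and Angpt1 at least 2-fold lower (mean log2 -2.15). For 38.7% of all genes measured the same held in 1 direction or the other, the background against which the count of members is to be read. Angpt1 had only 2, 2, 0 and 2 UMIs in podocyte-like cells, with 0 counted as 3. It reached 50 UMIs through proximal tubule-like cells, with 118, 50, 62 and 29. Against thick ascending limb-like cells, 2 of 5 members passed, Vegfa and Nrp1, against 30.4% of all genes. With each cell thinned to 1000 UMIs, 67.0% of podocyte-like cells had a Vegfa UMI (51.5% in WT-HFD, 71.3% to 76.0% in the other libraries), against 14.4% of principal cell-like cells and 12.0% of proximal tubule-like cells. Unthinned, 88.5% of podocyte-like cells had one. T, NK and B-like cells, which serve as the level of free RNA, had a Vegfa UMI in 1.37% after thinning; their median was 2895 UMIs, against 5382 in podocyte-like cells.

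Among endothelial cells, Vegfa itself differed by type. Glomerular endothelial-like cells had 99.5, 116, 81.7 and 75.2 CPM, and capillary endothelial-like cells 29.2, 5.74, 16.5 and 11.6. The 2 ranges did not overlap, and within libraries the level was 6.86-fold higher in the glomerular type (mean log2 2.78 ± 1.11). The summed podocyte markers were 75 to 111 CPM in glomerular and 72 to 103 CPM in capillary endothelial-like cells, against 16370 to 18970 in podocyte-like cells, and the part of podocyte RNA in these Vegfa levels was not tested. After thinning, 8.72% of glomerular and 1.34% of capillary endothelial-like cells had a Vegfa UMI, the second close to the share in lymphocytes.

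Pgf was found mostly in mesangial or mural-like cells. It stood there at 53.1 (WT-ND), 61.7 (WT-HFD), 62.0 (SP-ND) and 73.1 CPM (SP-HFD), and arterial-like cells, the next class, had 1.19 to 7.28. Mesangial or mural-like cells held 70.7% to 81.3% of a library's Pgf UMIs. Each cell of this class was also assigned, after the data had been examined, to the marker group that led in it: Itga8 and Pdgfrb (mesangial group), Rgs5, Myh11 and Notch3 (contractile group) or Ren1 (renin group). Pgf was 68.0 to 110 CPM in the contractile group and 28.6 to 39.0 in the mesangial group, and these ranges did not overlap. In the renin group it was 49.8 to 77.2 CPM, within reach of the contractile range.

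Among whole classes, Angpt1, the TEK agonist, had its highest mean level in principal cell-like cells of the collecting duct, at 36.0 and 48.9 CPM in the WT libraries (ND, then HFD) and 61.1 and 59.0 in the SP libraries. Arterial-like cells came next with 19.1 to 39.1 CPM; they were lower in all 4 libraries, although the ranges overlapped. The connecting part of the distal convoluted or connecting tubule-like class, described further on, had 31.3 to 57.2 CPM and overlapped the principal cell-like range. Distal convoluted or connecting tubule-like cells had 9.57 to 35.0 and mesangial or mural-like cells 13.5 to 31.1. Against thick ascending limb-like cells, Angpt1 was 25.4-fold higher in principal cell-like cells (mean log2 4.66) and was the only 1 of 7 members past 2-fold in every library, against 13.3% of all genes.

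Among the 13 classes, Angpt2 was highest in mesangial or mural-like cells, with 98.2, 102, 112 and 105 CPM (mean 104 ± 5.6, SD over the 4 libraries). Capillary endothelial-like cells had 22.5 to 41.3 CPM and arterial-like cells 21.5 to 44.1, and the mural range overlapped neither. In glomerular endothelial-like cells Angpt2 was 3.69, 2.88, 19.1 and 2.48 CPM, low in 3 libraries and higher in SP-ND. Within the mesangial or mural-like class, the mesangial group had 146 to 166 CPM, the contractile group 54.1 to 97.6 and the renin group 66.2 to 88.8. Compared with arterial-like cells, Angpt2 (log2 1.68) and Pgf (log2 4.61) were at least 2-fold higher and Flt1, Kdr and Tek at least 2-fold lower in mesangial or mural-like cells, 5 of 10 members against 17.3% of all genes. Pgf reached 50 UMIs through mesangial or mural-like cells, with 1, 1, 3 and 8 UMIs in arterial-like cells. Kdr did so through arterial-like cells, with 4, 15, 2 and 3 UMIs in mesangial or mural-like cells.

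Most Angpt2 UMIs were not in a named class: cells in no class held 58.7% to 71.8% of them in each library. Many of these lay in a small set of cells with Slc14a2, the gene of the UT-A urea transporters of the inner medullary collecting duct and thin descending limb. This set, cells of no class with at least 3 Slc14a2 UMIs and at least 1000 CPM of it, was chosen after values were seen, and it is given no cell type name here. It held 30 and 54 cells in the WT libraries (ND, then HFD) and 21 and 31 in the SP libraries, 0.302% to 0.604% of the kept cells, and 30.9% to 43.7% of the library's Angpt2 UMIs. Its Angpt2 level was 1728 CPM (1521 to 1955) in WT-ND but 658 (582 to 742) in WT-HFD. It was 1745 (1556 to 1950) in SP-ND but 1177 (1053 to 1311) in SP-HFD, against 17.3 to 56.6 CPM in the other cells of no class. An Angpt2 UMI was found in 96.7%, 66.7%, 95.2% and 80.6% of these cells. The log2 ratio of WT-HFD to WT-ND was -1.39, past 2-fold, as it was for 20.2% of all genes measured in this set, and that of SP-HFD to SP-ND was -0.57. Slc14a2 itself, which chose the cells, was 13465 and 6237 CPM in WT (ND, then HFD) and 14495 and 9769 in SP. Aqp1, a water channel of the thin descending limb and proximal tubule, was 151 and 989 CPM in WT and 11.2 and 208 in SP. The median mitochondrial share of the set was 22.7% in WT-HFD and at most 8.19% in the other libraries. The part of these values in the Angpt2 ratios was not tested.

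**Figure D2:**
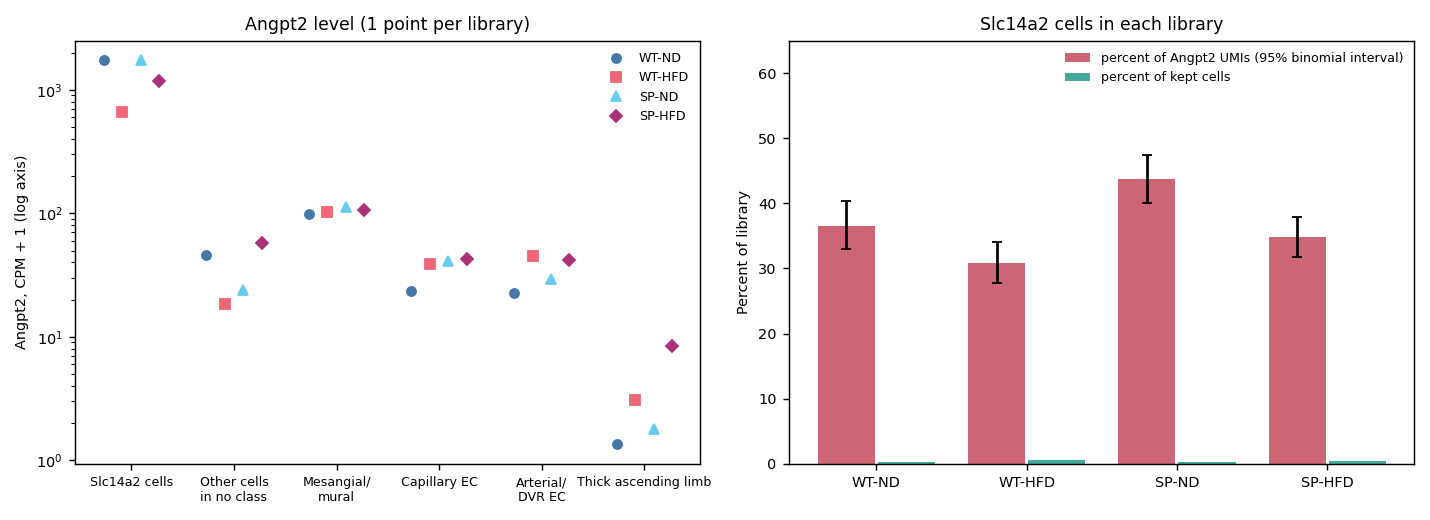
Left, Angpt2 level (CPM + 1, log axis) in the Slc14a2 cells, the other cells of no class and 4 named classes, 1 point per library; right, the Slc14a2 cells' percent of each library's Angpt2 UMIs (bars, with 95% binomial intervals) beside their percent of kept cells. The Slc14a2 cells stand at 658 to 1745 CPM and hold 30.9% to 43.7% of the Angpt2 UMIs with 0.302% to 0.604% of the cells.

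The receptors and co-receptors had their highest levels in endothelial-like classes. The letters upstream of the starts of 4 of them are given because these genes share their endothelial pattern; the window is the 250 bases before the start, in RefSeq on GRCm38.p6, written 5' to 3' on the strand of the gene. Capitals mark AGGAAG or its reverse complement CTTCCT, a sequence that ETS-family factors are known to bind. Other forms that these factors bind were not searched for, so that a window without a match may hold them. The window of Flt1 is chr5:147726012-147726261 (minus strand), of Kdr chr5:75978456-75978705 (minus), of Tek chr4:94739039-94739288 (plus) and of Eng chr2:32646345-32646594 (plus).
Flt1: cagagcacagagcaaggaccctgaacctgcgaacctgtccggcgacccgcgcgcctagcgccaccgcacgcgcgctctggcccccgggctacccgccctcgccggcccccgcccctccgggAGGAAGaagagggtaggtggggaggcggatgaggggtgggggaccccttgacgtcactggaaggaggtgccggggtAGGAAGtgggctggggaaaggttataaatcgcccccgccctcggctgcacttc
Kdr: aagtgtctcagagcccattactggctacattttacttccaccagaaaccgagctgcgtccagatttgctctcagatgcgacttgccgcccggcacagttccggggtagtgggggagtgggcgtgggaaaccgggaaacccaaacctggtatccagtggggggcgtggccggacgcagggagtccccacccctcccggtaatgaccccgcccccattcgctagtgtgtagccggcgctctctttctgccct
Tek: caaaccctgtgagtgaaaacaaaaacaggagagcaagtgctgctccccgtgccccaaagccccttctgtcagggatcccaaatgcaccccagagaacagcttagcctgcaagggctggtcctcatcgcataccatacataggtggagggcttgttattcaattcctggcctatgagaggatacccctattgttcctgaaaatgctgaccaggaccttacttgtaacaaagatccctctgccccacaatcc
Eng: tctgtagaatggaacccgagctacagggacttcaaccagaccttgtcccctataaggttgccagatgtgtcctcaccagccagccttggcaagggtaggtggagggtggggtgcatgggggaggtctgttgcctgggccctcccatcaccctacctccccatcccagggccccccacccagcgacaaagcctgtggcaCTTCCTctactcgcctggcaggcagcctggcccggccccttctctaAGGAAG
Flt1 and Eng held 2 matches each and Kdr and Tek 0, while 29.5% of all 32851 windows of that length held at least 1. A match is a description of the letters and not a site, and 8 of the 10 members had a window.

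Kdr had the largest ratio of the receptors between the glomerular and the arterial type. Its level in glomerular endothelial-like cells was 2938, 2108, 2978 and 2664 CPM. Capillary endothelial-like cells had 1553, 1337, 1691 and 1254 CPM and arterial-like cells 186, 185, 178 and 171, and none of these ranges overlapped. Within libraries Kdr was 14.7-fold higher in the glomerular than in the arterial type (mean log2 3.88) and log2 0.87 ± 0.18 (SD, 4 libraries) higher than in the capillary type. Thinned to 1000 UMIs, 81.9% of glomerular endothelial-like cells had a Kdr UMI, against 0.274% of lymphocyte-like cells.

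Flt1, the other VEGF-A receptor, did not divide glomerular from capillary endothelium in this way. Glomerular endothelial-like cells had 1562, 1311, 1708 and 1603 CPM, and capillary endothelial-like cells 1729, 1695, 2103 and 1447. The capillary value was above the glomerular value in 3 of 4 libraries and the ranges overlapped (mean log2 ratio of glomerular to capillary -0.17 ± 0.23). Both exceeded arterial-like cells, which had 572 to 713 CPM.

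The neuropilins went opposite ways. Nrp1 was higher in glomerular endothelial-like cells, at 1558, 1160, 1460 and 1462 CPM, than in capillary endothelial-like cells, at 601 to 655, and the mean log2 ratio of the types was 1.16 ± 0.23. Nrp2, better known from veins and lymphatic vessels, was higher in the capillary type, at 164, 248, 222 and 210 CPM, than in the glomerular type, at 87.6, 92.0, 116 and 119 (log2 ratio of glomerular to capillary -1.02 ± 0.28). In neither case did the ranges overlap. Nrp1 was also found in mesangial or mural-like cells (356 to 503 CPM) and in podocyte-like cells (140 to 177 CPM), each level apart from its neighbours in the order.

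Tek and Eng did not separate the glomerular from the capillary type by range. Tek was 441, 405, 491 and 447 CPM in glomerular and 479, 518, 635 and 498 CPM in capillary endothelial-like cells, higher in the capillary type in all 4 libraries by a mean log2 of 0.25 with overlapping ranges. Eng was 1185, 1050, 1302 and 982 CPM in glomerular and 760, 866, 1024 and 853 CPM in capillary endothelial-like cells, higher in the glomerular type in all 4 libraries, again with overlapping ranges (log2 0.37 ± 0.19). Arterial-like cells had less of both, 202 to 270 CPM of Tek and 538 to 631 of Eng. Outside the endothelium, Eng reached 172 to 416 CPM in mesangial or mural-like cells.

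Of the 8 members measured between glomerular and capillary endothelial-like cells, 1 was at least 2-fold higher in every library (Vegfa) and 1 lower (Angpt2, mean log2 -2.87), against 4.92% of all genes. Nrp1 and Nrp2 missed that rule in at least 1 library. The 2 calls rest on few UMIs in 1 type. Vegfa had 13, 5, 16 and 14 UMIs in capillary endothelial-like cells, and Angpt2 had 4, 4, 14 and 3 in glomerular endothelial-like cells. Between the glomerular and the arterial type, 4 of 9 members were higher (Kdr, log2 3.88; Nrp1, 2.59; Nrp2, 1.48; Flt1, 1.26) and Angpt1 lower, against 7.81% of all genes. Between the capillary and the arterial type the same 4 were higher (Kdr, log2 3.01; Nrp2, 2.51; Nrp1, 1.43; Flt1, 1.43) and Angpt1 lower, against 6.64%. Both comparisons use the arterial-like cells, and the Angpt1 values rest on libraries with 0 or 1 UMIs in the microvascular types, counted as 3 where 0.

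**Figure D3:**
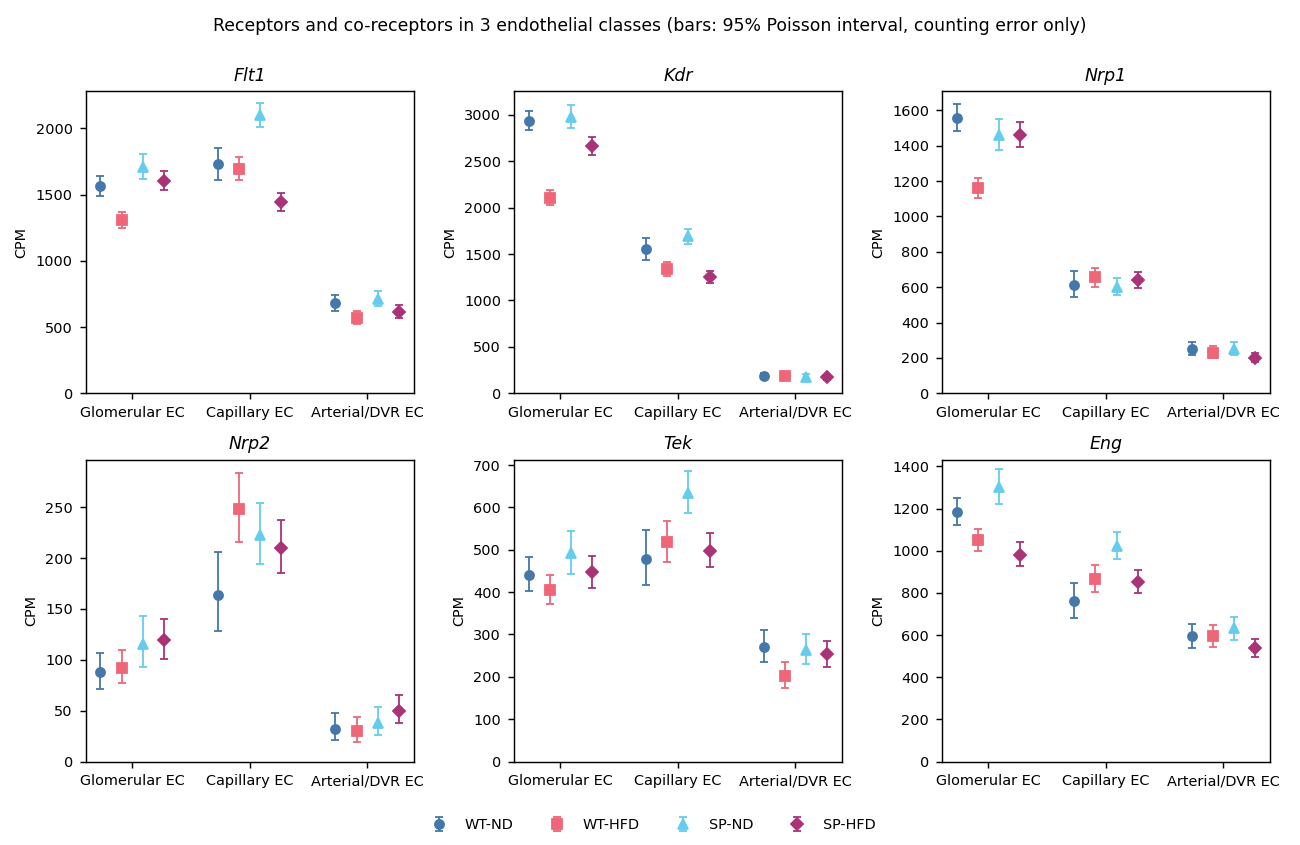
Level in CPM of the receptors and co-receptors in the 3 endothelial-like classes, 1 point per library with bars of the 95% Poisson interval for counting error. Kdr falls from 2108 to 2978 CPM in the glomerular type to 171 to 186 in the arterial type, while Flt1, Tek and Eng overlap between the glomerular and the capillary type.

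The first question of the study's design is what a high-fat diet changes in WT and in SP kidneys. Over the 13 classes, 51 pairs of a member and a class had at least 50 UMIs in the 2 WT libraries, and a ratio was counted where it was at least 2-fold and its interval did not reach 0. In WT-HFD against WT-ND, 6 pairs were higher and 2 lower by this rule, while of all gene and class pairs 2.19% were higher and 1.51% lower. Of the 6 higher pairs, 4 were receptors in intercalated-like cells that reached 50 UMIs through WT-HFD, with 54 to 66 UMIs there and 0 to 8 in WT-ND. The others also reached 50 UMIs through WT-HFD. They were Vegfa in mesangial or mural-like cells (43 UMIs against 15) and Angpt2 in arterial-like cells (37 against 16). Of the 2 lower pairs, Angpt1 in mesangial or mural-like cells reached 50 UMIs through WT-ND, with 31 UMIs against 19. The 8 pairs became 3 at a mitochondrial limit of 30% and 5 with free RNA subtracted. The share of all gene and class pairs was not computed under these alternatives, so that the fall is not a result about the members. In SP-HFD against SP-ND, 3 of 46 pairs were higher and 0 lower, against 1.59% and 2.11% of all. Among the 3 was Angpt2 in thick ascending limb-like cells, which reached 50 UMIs through SP-HFD, with 51 UMIs there and 7 in SP-ND. In podocyte-like, glomerular endothelial-like, capillary endothelial-like and proximal tubule-like cells none of the member ratios with at least 50 UMIs passed 2-fold in the comparisons of diet or of genotype. In each comparison 2 members were measured in podocyte-like cells, 7 in glomerular endothelial-like, 6 or 7 in capillary endothelial-like and 3 in proximal tubule-like cells. The others had too few UMIs for a ratio, among them Vegfa in capillary endothelial-like cells (13 UMIs in WT-ND and 5 in WT-HFD) and Angpt2 in glomerular endothelial-like cells (14 in SP-ND and 3 in SP-HFD). In the order WT diet, SP diet, genotype on ND and genotype on HFD, the share of all genes that did was 2.23%, 1.6%, 2.15% and 2.95% in podocyte-like cells and 2.21%, 2.59%, 2.03% and 2.15% in glomerular endothelial-like cells. It was 4.88%, 2.14%, 3.03% and 0.939% in capillary endothelial-like and 4.85%, 6.6%, 2.33% and 1.13% in proximal tubule-like cells.

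**Figure D4:**
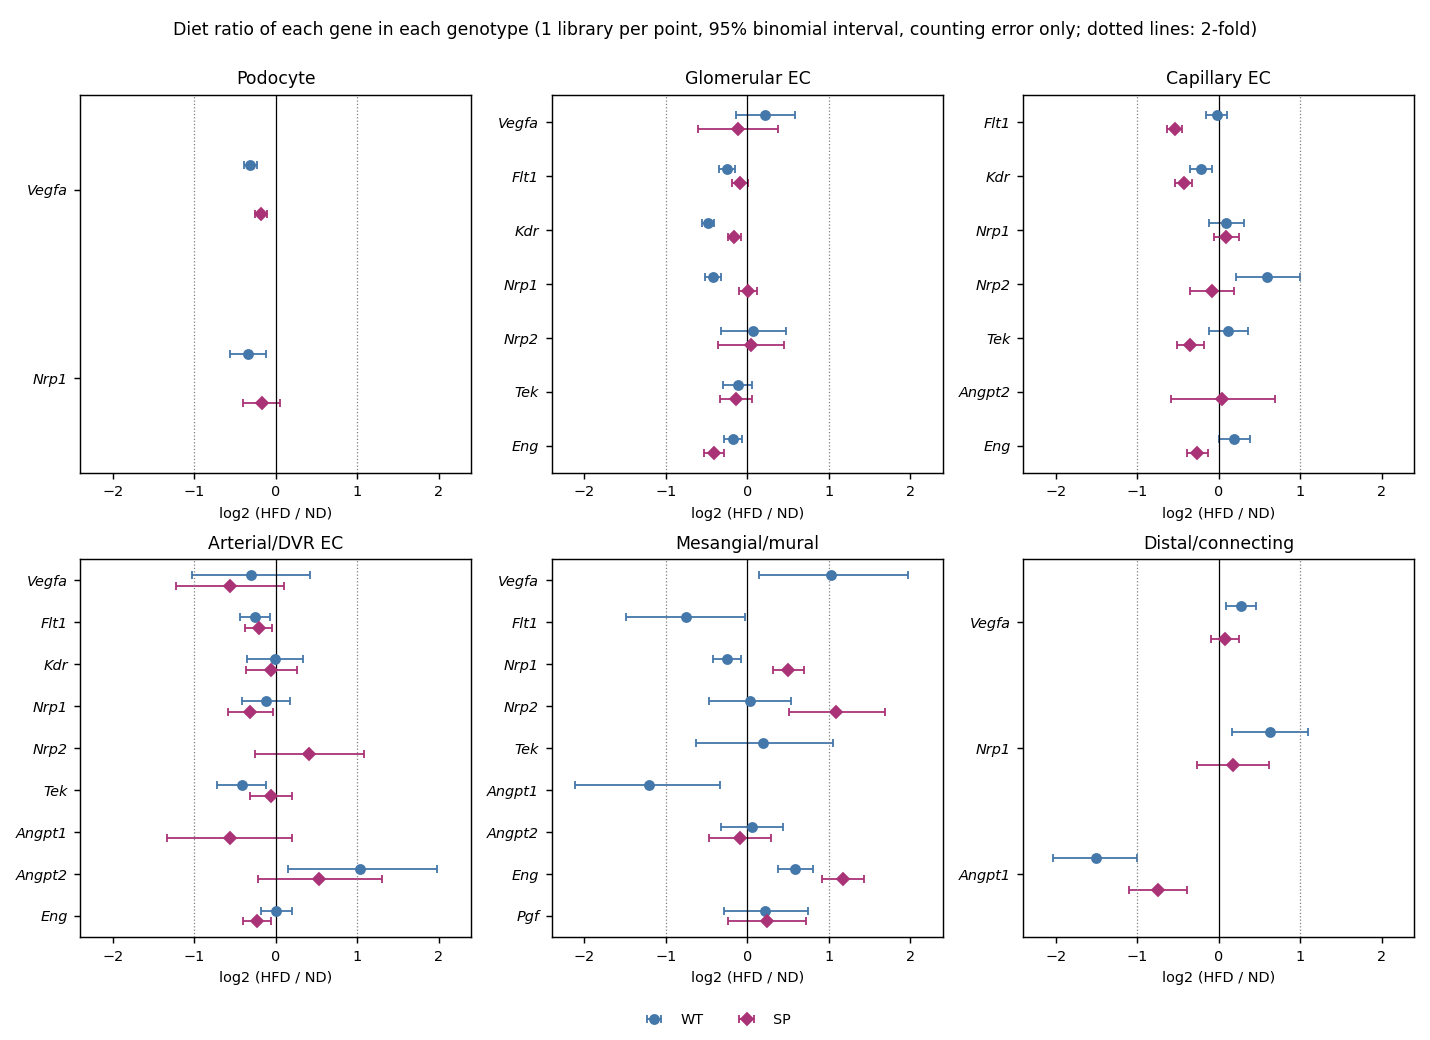
Log2 ratio of HFD to ND for each of the 10 members measured in 6 classes, in WT (circles) and SP (diamonds), with 95% binomial intervals for counting error and dotted lines at 2-fold. In podocyte-like, glomerular and capillary endothelial-like cells the points lie within 2-fold, for example Vegfa in podocyte-like cells at -0.31 in WT and -0.19 in SP, while Angpt1 in distal convoluted or connecting tubule-like cells is at -1.51 in WT and Eng in mesangial or mural-like cells at 1.17 in SP.

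Vegfa in podocyte-like cells was lower on HFD in both genotypes, by less than 2-fold. The log2 ratio stood at -0.31 (-0.39 to -0.24) for WT and at -0.19 (-0.26 to -0.11) for SP. The summed podocyte markers were also lowest in WT-HFD, 16370 CPM against at most 18970, and their part in the Vegfa ratio was not tested. Nrp1 in the same cells had log2 ratios of -0.34 in WT and -0.18 (-0.40 to 0.05) in SP. Vegfa in principal cell-like cells was lower on HFD in WT (-0.62, -0.82 to -0.42) and stood at 0.11 in SP.

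In glomerular endothelial-like cells Kdr was lower on HFD in both genotypes, by log2 -0.48 (-0.55 to -0.41) in WT and -0.16 (-0.24 to -0.08) in SP. Nrp1 had a ratio of -0.43 (-0.52 to -0.33) in WT and 0.00 in SP, and Flt1 of -0.25 and -0.09. Eng was lower in both, by -0.18 in WT and -0.41 in SP. In capillary endothelial-like cells Kdr was again lower in both (-0.22 and -0.43), whereas Flt1 was at -0.03 in WT and -0.54 (-0.63 to -0.45) in SP. Nrp2 in these cells was higher on HFD in WT (0.60, 0.21 to 1.00) and at -0.08 in SP. Whether these ratios differ between the genotypes beyond what separate animals would give cannot be tested with 1 library per condition.

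Taking members and classes measured in both genotypes, 26 of 42 pairs had the same sign of the diet ratio. For the other pathway genes, described further on, this held for 39 of 64 pairs. Both intervals excluded 0 in 10 of the 42 member pairs and in 10 of the 64 pathway pairs, the latter all with the same sign. The shares over all genes were not computed, so that these counts are not a result about the members. Of the 10 member pairs, 7 had the same sign: Vegfa in podocyte-like cells, Kdr in glomerular and capillary endothelial-like cells, Eng in glomerular endothelial-like cells, Flt1 in arterial-like cells, Angpt1 in distal convoluted or connecting tubule-like cells and Eng in mesangial or mural-like cells. Of these 7, Eng in mesangial or mural-like cells was the 1 with positive ratios.

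Angpt1 in distal convoluted or connecting tubule-like cells had the largest diet ratio among those 7. In WT it stood at 27.3 CPM on ND and 9.57 on HFD, in SP at 35.0 and 20.9. Both HFD libraries were below both ND libraries, with log2 ratios of -1.51 (-2.04 to -1.01) in WT and -0.74 (-1.10 to -0.39) in SP; of all genes measured in this class 2.12% and 1.77% passed 2-fold. The class was also divided, after the data had been examined, into a distal convoluted part led by Slc12a3, Pvalb or Trpm6 and a connecting part led by Calb1, Slc8a1 or Klk1. The distal convoluted part was 65.8% of the class in WT-ND against 72.6% in WT-HFD, and 55.5% against 67.6% in SP, so that it was larger on HFD. Angpt1 was lower in this part, at 14.0, 3.68, 15.7 and 6.45 CPM, than in the connecting part, at 50.5, 31.3, 57.2 and 52.2. Within the distal convoluted part the ratios were -1.93 (-2.95 to -1.02) in WT and -1.28 (-2.08 to -0.52) in SP, and within the connecting part -0.69 (-1.33 to -0.08) and -0.13 (-0.54 to 0.27).

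Eng in mesangial or mural-like cells was higher on HFD, at 416 against 277 CPM in WT and at 386 against 172 CPM in SP. The log2 ratios were 0.59 (0.38 to 0.80) and 1.17 (0.92 to 1.43); of all genes measured in this class 2.04% and 4.92% passed 2-fold. The makeup of the class moved with it. The mesangial group was 38.1% of the class on ND and 47.5% on HFD in WT, 22.2% and 47.3% in SP, and Eng was 657 to 850 CPM in that group and 11.7 to 26.2 in the contractile group. Within the mesangial group the ratios were 0.37 (0.16 to 0.58) in WT and 0.13 (-0.13 to 0.39) in SP. Nrp2 was past 2-fold in the whole class in SP (1.09, 0.52 to 1.69) and not in the mesangial group (0.40, -0.29 to 1.14). Nrp1 in the whole class was at -0.25 in WT and 0.50 in SP. Within the mesangial group, its ratios were -0.37 (-0.55 to -0.18) in WT and -0.11 (-0.34 to 0.13) in SP, and within the contractile group -0.65 (-1.23 to -0.08) and -0.38 (-0.79 to 0.03), so that the positive SP value was not found in either. In the renin group, with 8 to 20 Nrp1 UMIs per library, they were -0.92 in WT and 0.38 in SP, and both intervals held 0. In this class Angpt2 (0.06 in WT, -0.09 in SP) and Pgf (0.22 and 0.24) stayed within 2-fold. Angpt1 there was lower in WT (-1.20, -2.11 to -0.34), with 19 UMIs on HFD and 31 on ND, and kept its call in 4 of 8 alternatives. Vegfa was higher in WT at 30.5 against 15.0 CPM (1.02, 0.14 to 1.98). That Vegfa ratio kept its call in 3 of 7 alternatives and turned to -0.40 at a mitochondrial limit of 30%. Subtraction of free RNA is not among the 7, because it left no Vegfa UMIs in WT-ND and so no finite ratio.

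**Figure D5:**
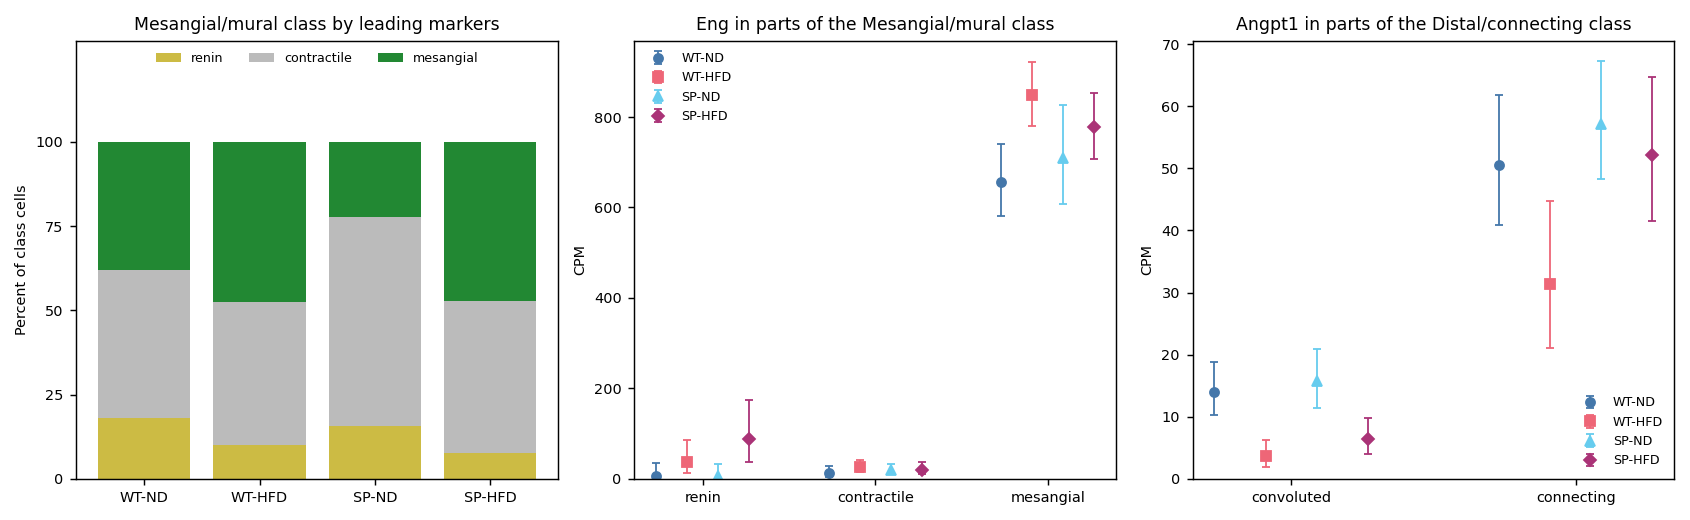
Percent of mesangial or mural-like cells in each marker group by library (left), Eng in these groups (middle) and Angpt1 in the convoluted and connecting parts of the distal class (right), in CPM with 95% Poisson intervals for counting error. Eng lies at 657 to 850 CPM in the mesangial group and at 11.7 to 26.2 in the contractile group, and the mesangial share runs from 22.2% in SP-ND to 47.5% in WT-HFD.

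In intercalated-like cells 4 endothelial receptors appeared higher in WT-HFD. Kdr was 11.3 CPM in WT-HFD, against 1.10 (WT-ND), 2.51 (SP-ND) and 0.978 (SP-HFD). Eng was 0.733, 12.3, 0.418 and 0.733 CPM, and Flt1 0, 11.3, 0.418 and 0.978, where the 0 in WT-ND and the WT-HFD value stand for 0 and 54 UMIs. The log2 ratios of WT-HFD to WT-ND were 4.07 for Eng, 3.36 for Kdr and 2.23 for Nrp1, and 6.52% of all genes measured in the class passed 2-fold. The summed general endothelial markers in this class were 93 CPM in WT-HFD and 11 to 14 in the others. The macrophage or dendritic markers were 151 in WT-HFD and 35 to 44 in the others, the proximal tubule markers 1627 against 184 to 629, and the class's own markers 7311 against 9537 to 10839. These values move with the receptor ratios, and their part was not tested. The same 4 genes had log2 ratios of -4.07 (Eng), -3.53 (Kdr), -3.53 (Flt1) and -3.01 (Nrp1) in SP-HFD against WT-HFD. Values highest in WT-HFD were not limited to these. Tek in intercalated-like cells had 0, 16, 1 and 2 UMIs. In principal cell-like cells Kdr was 1.21, 8.62, 2.31 and 0.378 CPM, Eng 2.02, 9.34, 1.92 and 3.78, and Flt1 1.21, 5.75, 1.15 and 1.14. These had too few UMIs for a diet ratio in WT.

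Angpt2 in thick ascending limb-like cells had 2, 14, 7 and 51 UMIs, the last in SP-HFD, and a log2 diet ratio of 3.21 in SP. A single SP-HFD cell held 31 of the 51 UMIs, together with 373 Slc14a2 UMIs, and 9 cells of the class had any. Without that cell, left out after the data had been examined, the ratio was 1.87 with too few UMIs for a call. Angpt2 in arterial-like cells was higher in WT-HFD than in WT-ND (1.03, 0.15 to 1.98), a ratio that fell short of 2-fold with up to 6000 genes per cell (0.62) and as a mean over cells (0.23).

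The second question is what the SGLT2 mutation changes on each diet. On the normal diet, 0 of 43 pairs of member and class passed 2-fold between SP-ND and WT-ND, against 0.905% of all pairs higher and 1.39% lower. Vegfa in podocyte-like cells was higher in SP-ND (0.18, 0.11 to 0.26), and Tek (0.41), Eng (0.43) and Nrp2 (0.44) were higher in capillary endothelial-like cells. In mesangial or mural-like cells Eng (-0.69), Nrp2 (-0.78) and Nrp1 (-0.49) were lower in SP-ND, the library with the smallest mesangial share; within the mesangial group, chosen after the data had been examined, Eng was at 0.11 (-0.18 to 0.40) and Nrp2 at -0.40 (-1.17 to 0.33). On the high-fat diet, 2 of 54 pairs were higher and 6 lower in SP-HFD than in WT-HFD, against 0.482% and 2.25% of all. Of the 6 lower pairs, 4 were the receptors in intercalated-like cells. These reached 50 UMIs through WT-HFD, with 54 to 66 UMIs there and 3 to 7 in SP-HFD. The others were Vegfa in macrophage or dendritic-like cells (-1.06, -1.85 to -0.32) and in mesangial or mural-like cells (-1.20, -2.13 to -0.34). These too reached 50 UMIs through WT-HFD, with 53 and 43 UMIs there and 22 and 16 in SP-HFD. The Vegfa ratio in mesangial or mural-like cells turned to 0.28 at a mitochondrial limit of 30%. At that limit 3 pairs in all passed 2-fold, and 2 with free RNA subtracted, where again the share of all pairs was not computed. The higher pairs were Angpt1 in distal convoluted or connecting tubule-like cells (1.12, 0.60 to 1.67) and Angpt2 in thick ascending limb-like cells (1.85, and 0.50 without the single cell). The Angpt2 pair reached 50 UMIs through SP-HFD, with 51 UMIs against 14. The Angpt1 ratio kept its call in 6 of 9 alternatives and was 0.74 at its lowest. Angpt1 was 6.45 CPM in SP-HFD and 3.68 in WT-HFD in the distal convoluted part, and 52.2 and 31.3 in the connecting part. Below 2-fold, Vegfa was higher in SP-HFD in podocyte-like cells (0.31, 0.23 to 0.39) and in principal cell-like cells (0.84, 0.65 to 1.04). So were Kdr, Nrp1 and Flt1 in glomerular endothelial-like cells (0.34, 0.33 and 0.29). Other values were lower in SP-HFD than in WT-HFD. Among them were Vegfa in glomerular endothelial-like cells (75.2 against 116 CPM) and Flt1 in capillary endothelial-like cells (1447 against 1695 CPM). The comparisons on the high-fat diet share WT-HFD with the WT diet comparison, so that their values are not separate evidence of each other.

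Another 18 genes of the same pathways were read alongside. Of their measured pairs with a class, 3 of 65 were higher and 2 lower past 2-fold in WT-HFD against WT-ND, where 2.19% of all pairs were higher and 1.51% lower. The 3 higher pairs were all Ptprb and reached 50 UMIs through WT-HFD. They lay in intercalated-like (85 UMIs against 9), distal convoluted or connecting tubule-like (37 against 13) and thick ascending limb-like cells (50 against 14). In SP-HFD against SP-ND, 4 of 65 were higher and 3 lower, against 1.59% and 2.11% of all. Of the 4, 2 were Ptprb, which reached 50 UMIs through SP-HFD. They lay in distal convoluted or connecting tubule-like (39 UMIs against 16) and proximal tubule-like cells (43 against 23). Another of the 4 was Thbs1 in distal convoluted or connecting tubule-like cells (291 UMIs against 139, log2 1.21). Its WT diet ratio in that class was 0.72 (0.44 to 1.01). Thbs1 in macrophage or dendritic-like cells was among the lower pairs in both genotypes. It reached 50 UMIs through the ND library, with 34 UMIs against 24 in WT and 82 against 6 in SP. In SP-ND against WT-ND, 2 of 61 were higher and 0 lower (0.905% and 1.39% of all), and in SP-HFD against WT-HFD, 0 of 66 were higher and 1 lower (0.482% and 2.25%). The 2 higher pairs were Plxnd1 in macrophage or dendritic-like cells and Thbs1 in proximal tubule-like cells. Plxnd1 reached 50 UMIs through SP-ND, with 61 UMIs against 17. Thbs1 had 30 UMIs in SP-ND and 27 in WT-ND, at 2.77 against 1.25 CPM. The 1 gene past 2-fold in podocyte-like, glomerular or capillary endothelial-like cells was Vegfb, a ligand of FLT1, in podocyte-like cells of SP mice, at 12.2 CPM in SP-ND and 25.1 in SP-HFD (log2 1.04, 0.32 to 1.79), where 1.6% of all genes passed 2-fold. Vegfb reached 50 UMIs there through SP-HFD, with 51 UMIs against 25. Vegfc, the ligand of lymphatic VEGF receptors, was 176 to 238 CPM in arterial-like cells. Flt4, its receptor, was 93.7 to 108 CPM in capillary endothelial-like and 41.7 to 54.5 in glomerular endothelial-like cells. Esm1, known to be induced by VEGF in endothelium, was 927 to 1452 CPM in capillary and 1.65 to 5.44 CPM in glomerular endothelial-like cells, although Kdr was the higher in the latter. Apln, another gene of sprouting endothelium, was 49.5 to 85.2 and 0.918 to 7.43 CPM in the same order. Tie1, the partner of TEK, and Ptprb, the phosphatase that restrains it, were within 168 to 256 and 847 to 1737 CPM over the endothelial-like classes.

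The genes whose pattern was most like that of each member were found by Pearson's correlation of log2(CPM + 1) over the 13 classes, which share libraries and depth. The search covered 9990 genes with at least 20 CPM in at least 1 class. Class markers and the members themselves were left out of it, so that a closer match among those would not appear. They were Mib2, Arhgap32 and Acbd5 for Vegfa (r = 0.93 for Mib2), Arhgef15, Gm49767 and Zfp366 for Flt1 (0.99 for Arhgef15), and Unc45b, Cyyr1 and Rtp3 for Kdr (0.99 for Unc45b). For Nrp1 they were Rasal2, Dusp12 and Tspan4, for Nrp2 Asap1, Cnrip1 and Acap2, for Tek Arhgef15, Ldb2 and Dchs1, and for Eng Cd34, Arhgap31 and Calcrl. For Angpt1 they were Ypel2, Gper1 and Myh10, for Angpt2 Casp12, Sparcl1 and Art3, and for Pgf Col3a1, Cox4i2 and Pi15. Likeness was lowest for the best match of Angpt1 (0.86).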

How the data were processed

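Whole kidneys were dissociated and single cells captured with 10x Genomics 3' chemistry, 1 library per condition. The authors deposited, for each library, UMI counts per gene and barcode, made with Cell Ranger on mm10; the version is given differently by the sources (2.1.1 in the submitters' processing notes). Groups were taken from the titles, and the diet of samples titled by genotype alone from the design text. From the counts, cells with 200 to 5000 genes and under 50% mitochondrial UMIs were kept, and cells with the highest doublet scores removed (50 neighbours, 30 principal components, 2000 variable genes, the top 0.8% per 1000 cells). A cell joined a class with at least 3 UMIs of at least 2 markers, at least 2-fold over the pooled share; more than 1 lineage made it mixed, and segments and endothelial types needed 2-fold over the next. These limits were set after marker values were seen, and 13 classes had at least 30 cells in each library.

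UMIs were summed by class and library. Levels (CPM) have exact Poisson and log2 ratios exact conditional binomial 95% intervals; shares of cells have Clopper-Pearson intervals in the tables and were thinned to 1000 UMIs. A ratio passed where it was at least 2-fold, its interval did not reach 0 and the pair had at least 50 UMIs; between classes, at least 2-fold in 1 direction in all 4 libraries, with 0 counted as 3. On simulated counts, 95.6% to 96.4% of intervals held the true ratio in 6 class comparisons. These counts were drawn from the Poisson model that the intervals assume. The result therefore checks the computation, and not whether the intervals hold for UMIs that cluster in single cells. Named were the 10 members, the pathway genes past 2-fold in podocyte-like or microvascular cells (others by level, chosen after their values were seen) and the 3 genes most like each member. Members and lists were chosen with earlier results of these data known. The alternatives were other mitochondrial, UMI, gene and marker limits, doublets kept, other scalings, and 10% of UMIs subtracted as free RNA. Class parts, the Slc14a2 cells, the removal of 1 cell and the fits without WT-HFD were added after seeing the data. Python 3.11.15 with NumPy 2.4.6, pandas 2.3.3 and SciPy 1.17.1 was used.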

Additional observations from a re-analysis of the deposited data

Results flagged for a closer look

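In 3 cases the diet ratio had opposite signs in the 2 genotypes and each interval excluded 0. The difference itself was not tested, since each condition was 1 library. The share of all genes with such opposite signs was not computed. Eng in capillary endothelial-like cells had a log2 ratio of HFD to ND of 0.19 in WT and -0.26 in SP. Vegfa in proximal tubule-like cells had 0.15 in WT and -0.18 in SP. Nrp1 in mesangial or mural-like cells had -0.25 in WT and 0.50 in SP, in a class whose mesangial share was 38.1% (ND) and 47.5% (HFD) in WT and 22.2% and 47.3% in SP. Within the mesangial group (-0.37 in WT, -0.11 in SP) and the contractile group (-0.65 and -0.38) the ratio was negative in both genotypes, while in the renin group, with 8 to 20 UMIs per library, it was -0.92 and 0.38.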

How the results depend on the processing

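The leading class of each of the 10 members was the same under the 9 alternatives run for it. Of the mean levels, 85 values stayed within 1 SD of the value reported and 5 moved: Angpt2 in mesangial or mural-like cells was 111 CPM at a mitochondrial limit of 30%, 120.03 over UMIs of genes other than mitochondrial ones and 114 with free RNA subtracted, and over non-mitochondrial UMIs Angpt1 in principal cell-like cells was 64.5 and Pgf in mesangial or mural-like cells 71.9. Of the counts past 2-fold, 114 stayed within 1.5 times and 10 moved. The shares over all genes were not computed under the alternatives, so that these moves are not a result about the members. At the 30% limit they were 3 for WT-HFD to WT-ND, 3 for SP-HFD to WT-HFD and 1 for glomerular to capillary endothelial-like cells. With free RNA subtracted, the first 2 were 5 and 2. With doublets kept, SP-ND to WT-ND gave 2. With up to 6000 genes, SP-HFD to SP-ND gave 5 and principal cell-like to thick ascending limb-like cells 2. By the mean over cells, glomerular to arterial-like cells gave 3, and without WT-HFD principal cell-like to distal convoluted or connecting tubule-like cells gave 1. Vegfa in mesangial or mural-like cells turned at the 30% limit, to -0.40 for WT-HFD to WT-ND and 0.28 for SP-HFD to WT-HFD. Of the named ratios, 113 kept their direction and call, and 28 kept their direction and lost the call. At the 30% limit the latter included the receptors in intercalated-like cells, which had too few UMIs left. Alternatives without a finite ratio are not in these counts. Among them was subtraction of free RNA for the receptors in intercalated-like cells. The same held for Vegfa in mesangial or mural-like and macrophage or dendritic-like cells. The ratio of Angpt1 in distal convoluted or connecting tubule-like cells for WT-HFD to WT-ND ran from -1.93 to -0.69 over 10 alternatives, and that of Eng in mesangial or mural-like cells for SP-HFD to SP-ND from 0.13 to 1.30. The cause of these moves was not tested. Pgf had the fewest UMIs, 69 to 123 per library, so that its ratios have wide intervals. No paired analysis was possible because each condition of diet and genotype was 1 library, so that no replicates could be matched between conditions; cell classes were compared within each library, without a test.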
